A study of Mus musculus with 22 samples.

Results

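The mouse mitochondrial genome carries 37 genes, and all 37 stood among the 52535 gene symbols of each of 12 RNA-seq count tables, where they were found by the prefix mt- of their symbol. They comprised 13 protein genes, 2 ribosomal RNA genes and 22 transfer RNA genes. The cells were E14, an established mouse embryonic stem cell line derived from the blastocyst. Cells of every genotype had left a medium with LIF, the MEK inhibitor PD0325901 and the GSK inhibitor CHIR99021, and had received 2 µM retinoic acid for 1 day. The study asked how 2 enhancers, E1 and E2, act on HoxB genes and on the early response to retinoic acid. Its 4 genotypes were wild type (WT), E1-KO without the first enhancer, E2-KO without the second, and D-KO, which the labels do not spell out and which is read here as the deletion of both. Each genotype had 3 libraries, named here by genotype and replicate number, and none came from untreated cells. The series calls them biological replicates, but neither separate cultures nor the number of clones per deletion is given, so p-values measure only the spread between these libraries.

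The 12 libraries held 9101547 to 13007735 counts on named genes. Libraries of one KO genotype differed from each other by a chi-square per degree of freedom of 2.20 to 3.99 over all genes, and WT libraries by 38.9 to 77.8, so none was a copy of another and the WT libraries lay far apart. All 8 general pluripotency markers were measured, with a summed level of 2044 to 3102 CPM (counts scaled to a common library total) in WT and 3634 to 4287 in the KO libraries. The 8 naive pluripotency markers summed to 1634 to 2030 CPM in WT, 3351 to 3404 in E1-KO, 2794 to 2907 in the E2-KO libraries and 2212 to 2250 in those of D-KO. The 9 primitive endoderm markers summed to 364 to 401 CPM in WT, 143 to 152 in E1-KO and 219 to 228 in the other 2 KO genotypes, and 7 trophectoderm markers to 102 to 114 in WT, 178 to 193 in E1-KO and E2-KO and 92.2 to 102 in D-KO. Markers of a 2-cell-like state, 7 in number, summed to 104 to 217 CPM in WT and 10.8 to 39.3 in the KO libraries. The 8 fibroblast markers summed to 3.70 to 8.51 CPM, with Lum at 0 in every library. The part of these differences in cell state in the mitochondrial results below was not tested.

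Mitochondria keep a small circular genome that encodes core subunits of complexes I, III, IV and V of oxidative phosphorylation, together with the ribosomal and transfer RNAs that translate them. Both strands are transcribed as long precursors, which are cut at the transfer RNAs into single messages, and the rest of each complex, the polymerase and the ribosomal proteins are encoded in the nucleus and imported. Embryonic stem cells leaving the naive state are known to change how far they rely on oxidative phosphorylation.

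Of the 37 members, 23 had at least 1 count in the 12 libraries and 20 had enough counts to be tested. All 13 protein genes and both ribosomal RNA genes had counts, but only 8 of 22 transfer RNA genes did. These were 6 of 8 transfer RNA genes on the minus strand and 2 of 14 on the plus strand. The other 14 were at 0 in all 12 libraries, which together allow each up to 0.0245 CPM of assigned reads (3 of 122357213 counts, counting error only). That limit does not hold for the RNA itself. Reads that could belong to more than 1 gene are kept on a separate line, with 0.736% to 0.932% of all reads. How many of them came from these short genes was not tested. The 3 members with counts that could not be tested were mt-Tw with 81 counts over all libraries, mt-Ta with 57 and mt-Atp8 with 13. The run of 3 transfer RNA genes after mt-Nd1 is printed because it shows this on neighbouring genes (GRCm38, chrM:3706-3913, plus strand). In it mt-Ti and mt-Tm on the plus strand were at 0, while mt-Tq on the minus strand, whose bases are in capitals, had 537 counts.
mt-Ti to mt-Tm: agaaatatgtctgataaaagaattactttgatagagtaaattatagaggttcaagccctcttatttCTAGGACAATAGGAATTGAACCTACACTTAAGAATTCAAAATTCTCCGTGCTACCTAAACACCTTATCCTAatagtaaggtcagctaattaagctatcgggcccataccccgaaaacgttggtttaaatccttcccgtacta

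The level of the protein genes per length fell into separate ranges. Summed over the 12 libraries, mt-Nd1 had 578428 counts per kb, mt-Co1 537171, mt-Cytb 345592, mt-Nd2 316076, mt-Nd6 202628, mt-Nd5 192682 and mt-Nd4 146076. This order was not that of every library. In E1-KO mt-Co1 had 3039 to 3286 CPM per kb and mt-Nd1 2424 to 2714. The other 6 protein genes had far fewer, with 4519 counts per kb for mt-Co2, 2443 for mt-Atp6, 1759 for mt-Co3, 632 for mt-Nd3, 613 for mt-Nd4l and 63.7 for mt-Atp8. These 6 genes lie next to each other on the genome and inside a stretch, chrM:6390-11042, that recurs in the nuclear reference genome at chr1:24611535-24616188 on the minus strand with 99.9% identity over 4654 aligned columns. Every 100-base window of mt-Co2, mt-Atp8, mt-Atp6, mt-Co3 and mt-Nd4l, and 98.8% of those of mt-Nd3, were identical in the nuclear genome. The share was 60.8% for mt-Nd4, 30.8% for mt-Co1, 3.19% for mt-Nd2 and 1.21% for mt-Rnr2, and 0 for mt-Rnr1, mt-Nd1, mt-Nd5, mt-Nd6 and mt-Cytb. These shares depend on the window length. With 50-base windows the share was 51.1% for mt-Co1 and 7.61% for mt-Nd5, and the read length is not given in the sources used here.

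**Figure D1:**
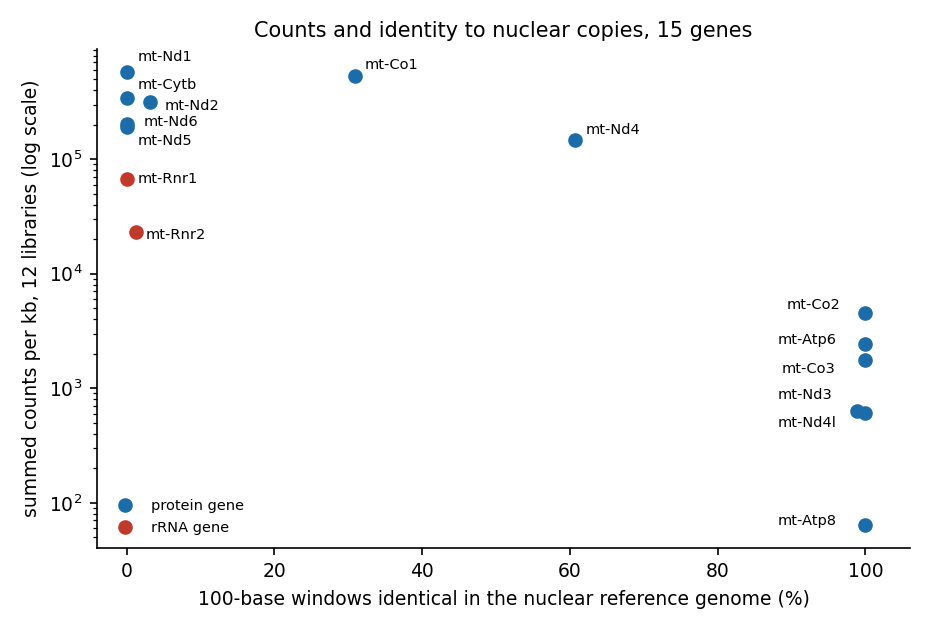
Counts per kb summed over the 12 libraries (y axis, log scale) against the percent of a gene's 100-base windows that are identical in the nuclear reference genome (x axis), for the 13 protein genes in blue and the 2 ribosomal RNA genes in red. The 6 genes at 98.8% or more lie between 63.7 and 4519 counts per kb, and the other 9 between 22955 and 578428.

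The first 90 bases of mt-Co2, mt-Cytb and mt-Rnr1 are printed with their closest nuclear stretches because they show how differently a read could be placed (GRCm38, 5′ to 3′ in the sense of the gene, differing bases in capitals). The mt-Co2 stretch (chrM:7013-7102) and its nuclear copy (chr1:24615476-24615565, minus strand) had no difference. The mt-Cytb stretch (chrM:14145-14234) differed at 6 of 90 bases from chr4:80003989-80004078 on the plus strand. The mt-Rnr1 stretch (chrM:70-159) differed at 18 bases from chr3:109076829-109076918 on the minus strand.
mt-Co2: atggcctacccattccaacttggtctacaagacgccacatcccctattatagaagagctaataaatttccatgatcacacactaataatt
nuclear copy of mt-Co2: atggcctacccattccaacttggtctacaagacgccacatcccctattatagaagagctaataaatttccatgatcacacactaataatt
mt-Cytb: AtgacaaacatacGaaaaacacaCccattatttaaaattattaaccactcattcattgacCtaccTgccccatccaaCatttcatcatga
nuclear stretch closest to mt-Cytb: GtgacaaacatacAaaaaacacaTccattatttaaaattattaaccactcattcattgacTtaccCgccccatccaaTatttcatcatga
mt-Rnr1: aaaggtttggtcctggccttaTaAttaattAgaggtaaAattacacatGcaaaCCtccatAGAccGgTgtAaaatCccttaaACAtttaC
nuclear stretch closest to mt-Rnr1: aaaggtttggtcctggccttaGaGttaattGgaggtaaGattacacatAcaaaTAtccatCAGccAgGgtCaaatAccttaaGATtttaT
The tables keep reads with more than 1 alignment on a line of their own, which held 15.1% to 18.7% of all reads. It was 18.7%, 16.8% and 17.5% in WT 1, WT 2 and WT 3, and 15.1% to 15.5% in E1-KO. The E2-KO libraries had 16.2% to 16.6% and those of D-KO 17.9% to 18.2%. How many of these reads came from these 6 genes was not tested. The sequence of E14 itself was not analysed here. The fold changes of mt-Co2, mt-Atp6, mt-Co3, mt-Nd3 and mt-Nd4l given below thus rest on 182 to 3091 counts per gene over all libraries. The 7 pseudogenes annotated in the chromosome 1 copy summed to 55.4 to 338 CPM, with 224.6 (WT 1), 105.9 (WT 2) and 338.3 (WT 3) in WT, 55.4 to 68.5 in E1-KO, 97.5 to 102 in the E2-KO libraries and 139 to 156 in those of D-KO. Of 9 tested pseudogenes of such copies, 7 were called lower in E1-KO than in WT, 6 in E2-KO and 0 in D-KO, where 18.5%, 18.6% and 12.2% of all genes were called lower.

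Mitochondrial genes took 3.50% of the counts in WT 1, 1.94% in WT 2 and 5.88% in WT 3. These counts leave out the reads with more than 1 alignment given above. The share was 1.36%, 1.48% and 1.39% in the 3 E1-KO libraries, 1.63%, 1.64% and 1.81% in E2-KO, and 2.59%, 2.53% and 2.69% in D-KO. All 6 E1-KO and E2-KO libraries lay below every WT library, whereas the D-KO libraries lay between WT 2 and WT 1. The means were 3.78% ± 1.98 (SD, n = 3) in WT, 1.41% ± 0.0643 in E1-KO, 1.69% ± 0.0998 for E2-KO and 2.60% ± 0.0810 for D-KO. Counting error was far smaller than these spreads, with a 95% Wilson interval of 3.49% to 3.51% for WT 1. In bulk RNA, fewer cells of a type and less RNA per cell cannot be told apart.

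**Figure D2:**
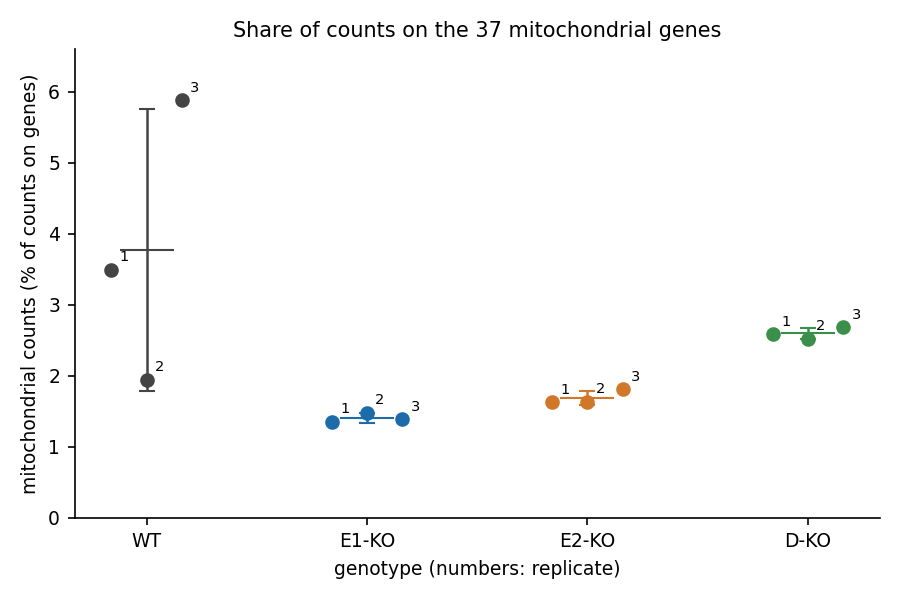
Percent of the counts on genes that fell on the 37 mitochondrial genes (y axis, from 0) in each library, by genotype (x axis); numbers are replicates, the horizontal mark is the mean and the bar the SD of 3 libraries. WT libraries spread from 1.94% to 5.88%, while the ranges are 1.36% to 1.48% for E1-KO, 1.63% to 1.81% for E2-KO and 2.53% to 2.69% for D-KO.

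The 4 genotypes differed in the log2 share beyond the spread between libraries (F = 6.25, exact permutation test over 369600 arrangements, p = 0.0119). On the percent scale F was 3.45 and the exact permutation p 0.0546, which missed the threshold of 0.05. Among the 9 KO libraries alone F was 139.9 (exact permutation test, p = 0.00357, the smallest that 1680 arrangements can give). The mean log2 share was lower than in WT by 1.28 in E1-KO, by 1.02 in E2-KO and by 0.40 in D-KO, with two-sided exact permutation p-values of 0.1, 0.1 and 0.5. It was 0.89 higher in D-KO than in E1-KO, 0.62 higher in D-KO than in E2-KO and 0.27 higher in E2-KO than in E1-KO, each with an exact permutation p of 0.1. Groups of 3 against 3 cannot give a p below 0.1. The 3 comparisons with WT share the WT libraries. When WT 2 stood alone for WT, the D-KO share was 0.42 higher on the log2 scale, so that direction rested on WT 1 and WT 3.

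WT 3 had the highest level of 18 of the 20 tested members among all 12 libraries, and WT 2 had the lowest of the 3 WT libraries for 18. WT 2 lay within the range of the 9 KO libraries for 18 members. The standard deviation of log2 CPM among WT libraries ran from 0.31 for mt-Co3 to 1.86 for mt-Rnr2. For mt-Nd1 it was 0.86 in WT and 0.06 to 0.08 in the KO genotypes, and for mt-Nd5 1.38 and 0.05 to 0.10. A KO genotype had a wider spread than WT for 3 members, which were mt-Co3 (0.43 in E2-KO against 0.31), mt-Nd4l (0.89 in E1-KO against 0.44) and mt-Ts1 (0.92 in D-KO against 0.61). The main edgeR fit below takes a common spread per gene over all genotypes. For the other members its errors and p-values are thus likely too small against WT, and too large between KO genotypes.

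The WT libraries differed in make-up as well as in level. Of the counts on the 13 protein genes, mt-Nd5, a subunit of complex I, took 21.6% in WT 3 against 12.1% in WT 1, 10.8% in WT 2 and 10.0% to 11.2% in the KO libraries. The share of mt-Nd6, the one complex I subunit read from the opposite strand, was 7.89% in WT 3 and 2.25% to 3.80% in the other 11 libraries. The share of mt-Cytb, the mitochondrial subunit of complex III, was 7.74% in WT 3 and 13.5% to 17.2% elsewhere. That of mt-Co1, the catalytic subunit of complex IV, was 19.7% in WT 3, 28.1% in WT 1, 31.6% in WT 2 and 31.8% to 35.4% in the KO libraries. From WT 1 to WT 3, log2 CPM was 2.54 higher for mt-Rnr2, 2.06 for mt-Rnr1, 1.72 for mt-Nd6 and 1.50 for mt-Nd5, but 0.15 higher for mt-Co1 and lower by 0.32 for mt-Cytb (-0.32). The excess of WT 3 was thus uneven across genes of the same genome.

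**Figure D3:**
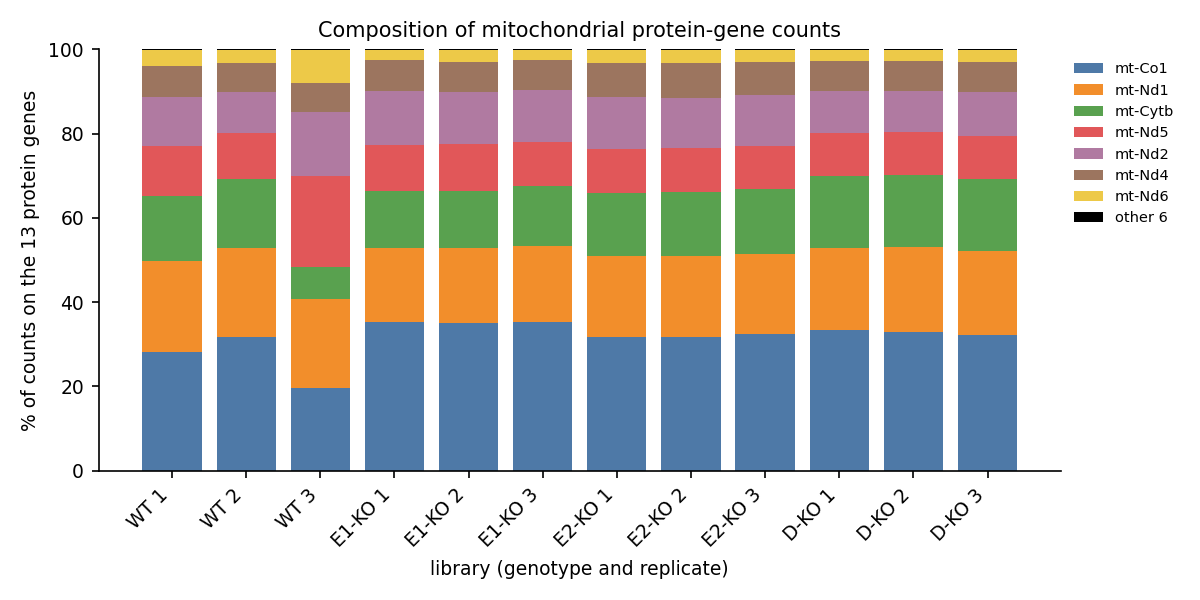
Percent of the counts on the 13 protein genes that fell on each of the 7 genes with most counts, and on the other 6 together (y axis), in each of the 12 libraries (x axis). WT 3 differs from the rest by a larger part for mt-Nd5 (21.6%) and mt-Nd6 (7.89%) and a smaller one for mt-Co1 (19.7%) and mt-Cytb (7.74%).

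mt-Nd5 and mt-Nd6 lie on opposite strands and overlap at their ends, which matters because the strand setting of the counting is not stated. Whether reads of a gene and of its antisense partner were told apart is thus not known here, and was not tested from the counts. The overlap is printed in capitals (GRCm38, chrM:13530-13590, plus strand).
end of mt-Nd5 and of mt-Nd6: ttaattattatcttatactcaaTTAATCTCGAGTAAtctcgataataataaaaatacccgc
The ratio of mt-Nd6 to mt-Nd5 counts was 0.314, 0.270 and 0.366 in WT 1, WT 2 and WT 3, and 0.210 to 0.282 in the KO libraries.

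Of the 2 ribosomal RNA genes, which build the mitochondrial ribosome, mt-Rnr1 lies upstream of mt-Rnr2. The 12S gene mt-Rnr1 had 851.4, 501.5 and 3906 CPM after TMM scaling in WT 1, WT 2 and WT 3, 98.1, 105.4 and 99.0 in E1-KO, 141.9, 137.9 and 162.4 in the E2-KO libraries, and 287.3, 288.7 and 307.0 in those of D-KO. All 9 KO libraries lay below the lowest WT library. Its log2 fold change against WT was -4.12 ± 0.59 (SE) in E1-KO, -3.57 ± 0.58 for E2-KO and -2.57 ± 0.58 for D-KO (edgeR quasi-likelihood test, adjusted p = 0.00121, 0.00237 and 0.0144). With WT 2 alone for WT these were -2.30, -1.76 and -0.77. It was called lower in E1-KO and in E2-KO under each of 22 alternative settings, and in D-KO under 21, with an adjusted p of 0.0521 under the other, which left out D-KO replicate 1.

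The 16S gene mt-Rnr2 had 288.5, 154.0 and 1837 CPM in the WT libraries, 112.9, 112.1 and 102.0 in E1-KO, 149.8, 151.5 and 172.7 in the E2-KO libraries, and 253.2, 254.5 and 272.3 in those of D-KO. Only the E1-KO libraries lay wholly below WT. The edgeR fold changes were -2.80 ± 0.71 in E1-KO and -2.26 ± 0.71 in E2-KO (adjusted p = 0.018 and 0.0383), and -1.55 ± 0.70 in D-KO (adjusted p = 0.154). In E2-KO the call was kept in 11 of 22 alternatives, and the fold change was 0.04 with WT 2 alone.

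The 2 ribosomal RNA genes did not move in step. mt-Rnr1 counts were 2.95, 3.26 and 2.13 times those of mt-Rnr2 in WT 1, WT 2 and WT 3. The ratio was 0.869 to 0.970 in E1-KO, 0.911 to 0.947 for E2-KO and 1.13 in all 3 D-KO libraries. It separated WT from the KO genotypes although the mitochondrial share of WT 2 (1.94%) lay below that of D-KO. This ratio was picked after its values were seen and is given without a test. The 2 ribosomal RNA genes together made up 3.17%, 3.50% and 8.66% of mitochondrial counts in WT and 1.51% to 2.102% in the KO libraries.

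**Figure D4:**
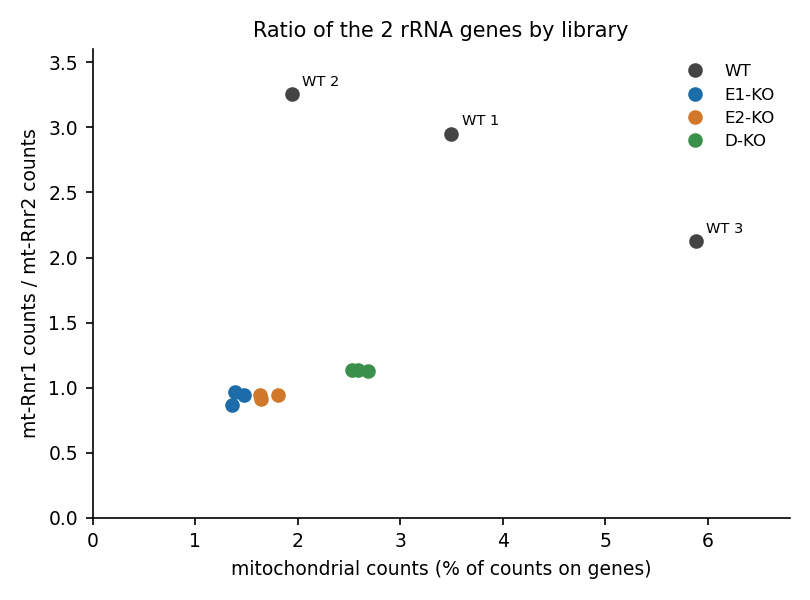
Counts of mt-Rnr1 divided by those of mt-Rnr2 (y axis, from 0) against the mitochondrial percent of counts (x axis) in each library, coloured by genotype. The 3 WT libraries lie at 2.13 to 3.26 at any share, and the 9 KO libraries at 0.869 to 1.13.

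Against WT, 18 of 20 tested members fell in E1-KO and 0 rose (edgeR, adjusted p below 0.05), with a median log2 fold change of -1.74 against -0.01 for all genes. This fit takes a common spread per gene over all genotypes. Given the wide WT spread, its p-values against WT are likely too small and its calls against WT too many. Of all 16765 genes tested, 34.2% were called in this comparison, 18.5% lower and 15.7% higher. In 15 of the 20 members all E1-KO libraries lay below all WT libraries, as for 20.1% of all genes. In E2-KO 15 members fell and 0 rose, with a median of -1.35 against 0.00, where 35.3% of all genes were called, 18.6% lower and 16.7% higher. All E2-KO libraries lay below WT for 9 members, against 19.7% of genes. In D-KO 3 members fell, mt-Rnr1, mt-Tq and mt-Ty, and 0 rose, with a median of -0.71 against -0.02, where 22.8% of genes were called, 12.2% lower and 10.6% higher. Only mt-Rnr1 had all D-KO libraries below WT, against 16.2% of genes. With WT 2 alone for WT, 10 members were called lower in E1-KO, 5 lower and 1 higher in E2-KO, and 1 lower and 10 higher in D-KO. In that fit the spread comes from the KO libraries alone and the single WT library is assumed to vary as they do, which the 3 WT libraries did not, so these calls are no test of WT against KO. In fits of only the 6 libraries compared, 12 members fell in E1-KO, 7 in the E2-KO libraries and 1 in those of D-KO. limma voom with a weight per genotype, which lets the spread differ between genotypes, gave the same counts over all 12 libraries. In the edgeR fit the E2-KO count was 8 without WT 3 or E2-KO replicate 2 and 9 without E2-KO replicate 1. The D-KO count was 13 without WT 2, and 1 without WT 3, any E1-KO library, E2-KO replicate 1 or 2, or D-KO replicate 1 or 2. Without D-KO replicate 1 that single call was a higher level.

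**Figure D5:**
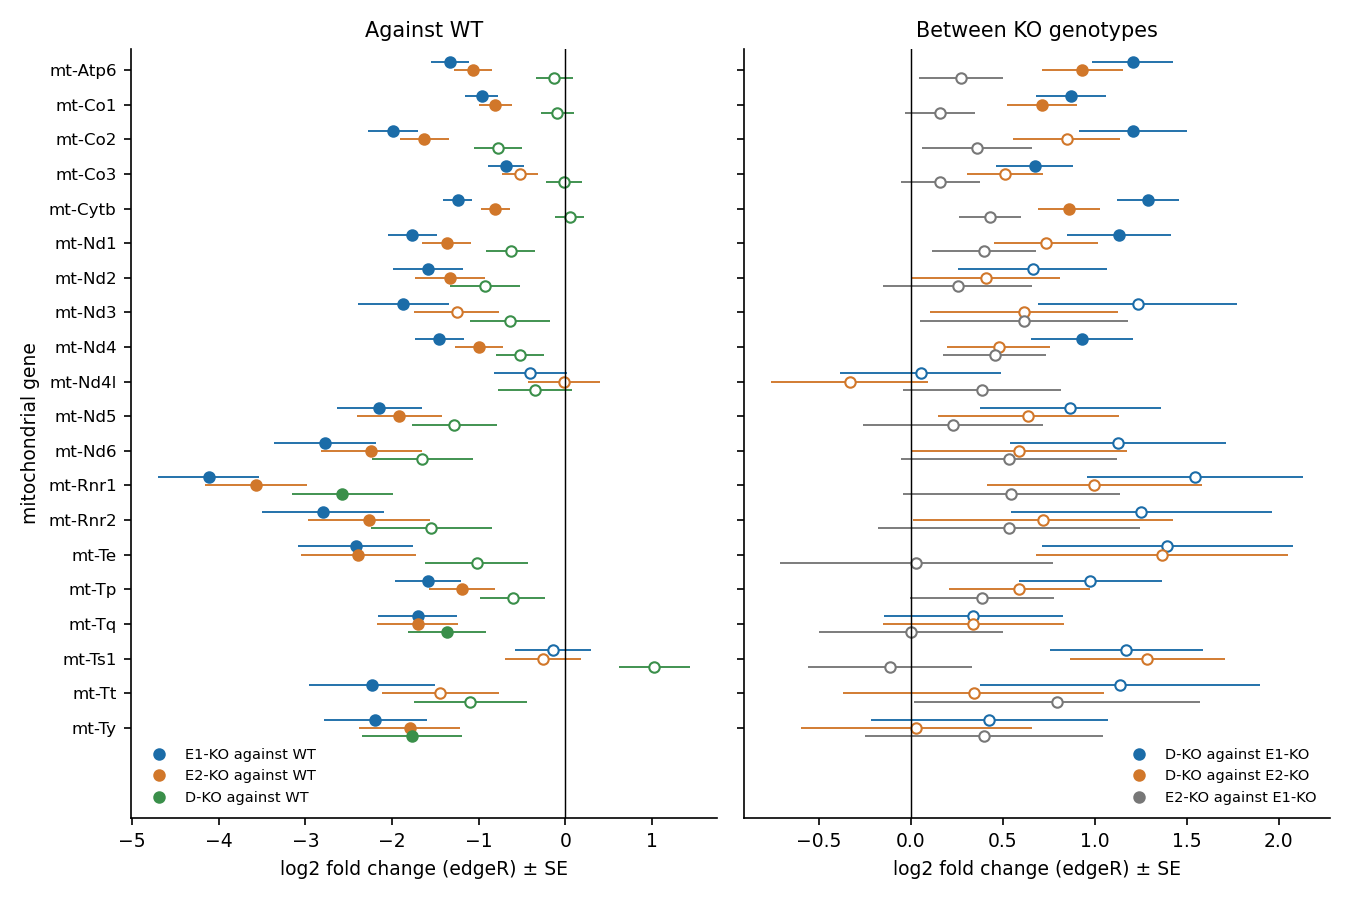
Log2 fold changes with standard errors (x axis) of the 20 tested mitochondrial genes (y axis), for each KO genotype against WT on the left and between KO genotypes on the right; filled points have an edgeR adjusted p below 0.05. Against WT, 18, 15 and 3 points are filled on the lower side for E1-KO, E2-KO and D-KO, and on the right 7 and 3 are filled on the higher side for D-KO.

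The 7 complex I genes build the proton-pumping arm of NADH dehydrogenase, and 6 of 7 fell in E1-KO. The complex I gene with most counts per kb was mt-Nd1, at 7510, 3843 and 12683 CPM in WT, 2219, 2493 and 2361 in E1-KO, 2988, 3014 and 3318 in the E2-KO libraries, and 5039, 5074 and 5401 in those of D-KO. E1-KO and E2-KO lay wholly below WT, and D-KO lay between WT 2 and WT 1. Its edgeR log2 fold change was -1.76 ± 0.28 for E1-KO and -1.37 ± 0.28 for E2-KO (adjusted p = 0.000594 and 0.00316), and -0.63 ± 0.28 in D-KO (adjusted p = 0.128).

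mt-Nd5 had 4188, 1948 and 13033 CPM in WT, 1384, 1558 and 1384 in E1-KO, 1624, 1661 and 1784 in the E2-KO libraries, and 2630, 2550 and 2714 in those of D-KO. mt-Nd6 had 1317, 526.3 and 4768 in WT, 291.2, 378.9 and 295.4 in E1-KO, 458.1, 462.1 and 478.0 in the E2-KO libraries, and 685.6, 658.6 and 760.5 in those of D-KO. For both genes D-KO exceeded WT 2, while E1-KO and E2-KO were below it. The edgeR fold changes in E1-KO were -2.15 ± 0.49 for mt-Nd5 and -2.78 ± 0.59 for mt-Nd6 (adjusted p = 0.00859 and 0.00748), and in E2-KO -1.92 ± 0.49 and -2.24 ± 0.59 (0.0144 and 0.0184). In D-KO they were -1.28 ± 0.49 and -1.65 ± 0.58, with adjusted p-values of 0.0891 and 0.0748.

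mt-Nd2 had 3962, 1747 and 9163 CPM in WT against 1612 to 1716 in E1-KO, 1878 to 2102 in the E2-KO libraries and 2482 to 2823 in those of D-KO, so only E1-KO lay below every WT library. mt-Nd4 had 2565, 1264 and 4088 CPM in WT, 934 to 1014 in E1-KO, 1276 to 1394 in the E2-KO libraries and 1768 to 1921 in those of D-KO. Both fell in E1-KO and E2-KO by edgeR, and their E2-KO fold changes of -1.33 and -0.997 became 0.17 and 0.07 with WT 2 alone. mt-Nd3 had 1.55 to 5.57 CPM in WT and 0.473 to 1.30 in E1-KO, where it fell (-1.87 ± 0.52, adjusted p = 0.0131). mt-Nd4l, with 0.568 to 2.25 CPM over all libraries, had log2 fold changes between -0.40 and -0.02 against WT and was not called in any of the 3 comparisons.

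mt-Cytb, the redox core of complex III, had 5311, 2945 and 4675 CPM in WT, 1739, 1876 and 1860 in E1-KO, 2302, 2368 and 2708 in the E2-KO libraries, and 4446, 4314 and 4628 in those of D-KO. E1-KO and E2-KO lay below every WT library, and D-KO lay between WT 2 and WT 3. It had the smallest adjusted p of all members in E1-KO (9.89e-05), with a log2 fold change of -1.24 ± 0.17, and fell in E2-KO by 0.81 (-0.81 ± 0.17, adjusted p = 0.00242). In D-KO the edgeR fold change was 0.05 ± 0.17 (adjusted p = 0.859).

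Complex IV, cytochrome c oxidase, takes mt-Co1, mt-Co2 and mt-Co3 from the mitochondrial genome. mt-Co1 had 9755, 5705 and 11882 CPM in WT, 4491, 4874 and 4638 in E1-KO, 4946, 5005 and 5668 in the E2-KO libraries, and 8602, 8334 and 8696 in those of D-KO. Its fold changes of -0.97 ± 0.19 in E1-KO and -0.81 ± 0.19 in E2-KO passed the edgeR test (adjusted p = 0.00179 and 0.00557), and that of -0.09 ± 0.19 in D-KO did not (0.764). mt-Co2, which carries the copper site that takes electrons from cytochrome c, had 44.8, 25.1 and 75.3 CPM in WT, 12.3, 11.97 and 12.1 in E1-KO, 14.4, 18.5 and 13.7 in the E2-KO libraries, and 24.9, 28.3 and 30.8 in those of D-KO. It fell in E1-KO (-1.99 ± 0.29, adjusted p = 0.000217) and in E2-KO (-1.63 ± 0.29, 0.000931). mt-Co3 had 14.2, 10.8 and 16.5 CPM in WT and 7.95 to 9.28 in E1-KO, where it fell (-0.69 ± 0.21, adjusted p = 0.0209) in the main fit and in 14 of 22 alternatives.

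Complex V, the ATP synthase, takes the proton channel subunit mt-Atp6 and the small mt-Atp8 from the mitochondrial genome. mt-Atp6 had 21.4, 13.5 and 24.5 CPM in WT, 7.19, 9.47 and 6.74 in E1-KO, 7.70, 10.7 and 9.85 in the E2-KO libraries, and 17.6, 16.6 and 19.8 in those of D-KO. It fell in E1-KO (-1.33 ± 0.22, edgeR adjusted p = 0.000502) and in E2-KO (-1.06 ± 0.22, 0.00243), with -0.13 ± 0.21 in D-KO (0.705). The E1-KO and E2-KO calls of mt-Atp6, mt-Co2, mt-Nd1 and mt-Rnr1 were kept in all 22 alternatives. mt-Atp8 had 0 to 4 counts per library, too few for any comparison.

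Among transfer RNA genes mt-Tp had the most counts, with 67.2, 20.1 and 93.3 CPM in WT, 19.9, 22.2 and 17.8 in E1-KO, 27.6, 25.2 and 25.6 in the E2-KO libraries, and 39.0, 34.9 and 43.9 in those of D-KO. It fell in E1-KO and E2-KO by edgeR (-1.58 ± 0.38 and -1.20 ± 0.38, adjusted p = 0.00862 and 0.0305). WT 2 lay among the KO libraries, and with WT 2 alone the fold changes were 0.00 and 0.38. The genes mt-Te, mt-Tq and mt-Ty, at 1.32 to 29.5 CPM, also fell in both genotypes, with fold changes of -2.42 to -1.71, and mt-Tt fell in E1-KO (-2.24 ± 0.73, adjusted p = 0.028). mt-Tq fell in D-KO too (-1.37 ± 0.45, adjusted p = 0.0425), as did mt-Ty (-1.77 ± 0.58, 0.0431), and these calls were kept in 8 and 7 of 22 alternatives. mt-Ts1 had 118 counts in the D-KO library of replicate 2 and 24 to 47 in the other 11 libraries, and was not called in any comparison with WT.

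Among the KO genotypes the mitochondrial share was lowest in E1-KO and highest in D-KO, with no overlap between their libraries. Between D-KO and E1-KO, 7 of 20 members were higher in D-KO by edgeR (mt-Atp6, mt-Co1, mt-Co2, mt-Co3, mt-Cytb, mt-Nd1 and mt-Nd4) and 0 lower, with a median log2 fold change of 1.13 against -0.01 for all genes. Of all genes 15.9% were called, 8.43% higher and 7.52% lower. The D-KO libraries lay above all E1-KO libraries for 16 members, against 27.3% of genes, and a fit of these 6 libraries alone called 16 higher. That fit leaves out the wide WT spread, which the fit over 12 libraries takes in. The count was 3 without any one of the 3 E1-KO libraries or without D-KO replicate 3, 4 without D-KO replicate 2, 11 without WT 2 and 12 without WT 3. The largest effect for its error was that of mt-Cytb (1.29 ± 0.17, adjusted p = 0.000309), followed by mt-Atp6 (1.21 ± 0.22, 0.00298) and mt-Co1 (0.87 ± 0.19, 0.00853).

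Between D-KO and E2-KO, mt-Atp6 (0.93 ± 0.22), mt-Cytb (0.86 ± 0.17) and mt-Co1 (0.71 ± 0.19) were higher in D-KO (edgeR adjusted p = 0.0274, 0.0112 and 0.049). The median of the 20 members was 0.63 against -0.02 for all genes, of which 4.48% were called, 1.84% higher and 2.64% lower. For 15 members all D-KO libraries exceeded all E2-KO libraries, against 22.8% of genes, and 14 were called higher in a fit of these 6 libraries. The count was 0 without E2-KO replicate 1, E2-KO replicate 2 or D-KO replicate 3, 1 without E2-KO replicate 3, D-KO replicate 1 or D-KO replicate 2, and 8 without WT 2 or without WT 3.

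Between E2-KO and E1-KO no member was called by edgeR with all 12 libraries, and 1 had an unadjusted p below 0.05, while 0.596% of all genes were called. DESeq2 also called 0. The median was 0.39 against 0.02, and all E2-KO libraries lay above all E1-KO libraries for 11 members, against 19% of genes. In a fit of these 6 libraries alone 8 members were called higher in E2-KO. The largest effect for its error was again that of mt-Cytb (0.43 ± 0.17, adjusted p = 0.345 with all libraries). The comparisons of D-KO with E1-KO and with E2-KO share the D-KO libraries.

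Mitochondrial genes are poor in G and C, at 31.9% to 41.1% for the 13 protein and 2 ribosomal RNA genes, and the libraries differed in how counts depended on that base content. Across 13059 nuclear genes, the Spearman correlation of relative expression with GC content was -0.64 in WT 1, 0.19 in WT 2 and -0.47 in WT 3. It was 0.27 to 0.39 in E1-KO, 0.33 to 0.49 in the E2-KO libraries and -0.12 to -0.03 in those of D-KO. Among 1212 nuclear genes of the same GC range, the median log2 expression relative to the mean of all libraries was 0.44, -0.04 and 0.24 in the WT libraries, -0.11 to -0.04 in E1-KO, -0.15 to -0.07 in the E2-KO libraries and 0.01 to 0.03 in those of D-KO. The part of base content in the mitochondrial results was tested only by removing these trends. With trends over GC content and length removed, 14 members were called lower in E1-KO than in WT, 6 in E2-KO, and in D-KO 1 was lower and 1 higher. Between KO genotypes, 6 members were then higher in D-KO than in E1-KO, and 3 higher than in E2-KO.

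The nuclear partners of the mitochondrial proteins were counted in the same libraries. Of 71 tested nuclear subunits of complexes I, III, IV and V, 6 rose and 4 fell in E1-KO, 14 rose and 1 fell in E2-KO, and 7 rose and 1 fell in D-KO against WT, with medians of 0.19, 0.32 and 0.15. With both directions together, called genes made up a smaller share of these subunits than of all genes, of which 34.2%, 35.3% and 22.8% were called. In E2-KO alone the share that rose, 14 of 71, was larger than among all genes, of which 16.7% were called higher there, but only slightly. These nuclear calls were not tried with a library left out. The summed level of the subunits was 8069, 9698 and 5576 CPM in WT 1, WT 2 and WT 3, and 8670 to 9966 in the KO libraries. WT 3, highest in mitochondrial counts, was thus lowest here. The 11 complex IV subunits summed to 1418, 1810 and 554 CPM in WT and 1672 to 1984 in the KO libraries. Of these, Cox4i1 and Cox7c rose in E2-KO (0.59 ± 0.18 and 0.55 ± 0.17, edgeR adjusted p = 0.0236 and 0.0198) and in D-KO (0.59 ± 0.18 and 0.62 ± 0.17, adjusted p = 0.0324 and 0.0158), and Cox6a1 had fold changes of 0.63 to 0.85 that did not pass. Among complex I subunits, Ndufa10 rose in E2-KO and D-KO (0.32 and 0.55), and Ndufs1 had -0.12 to 0.08 and did not pass. Of complex III, Uqcrc2 fell in E1-KO (-0.46 ± 0.12, adjusted p = 0.00909), and Cyc1 and Uqcrq did not pass. The complex V subunits Atp5a1, Atp5b and Atp5f1 had fold changes of -0.04 to 0.17 and did not pass.

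The machinery that transcribes and processes mitochondrial RNA was also measured, and its counts of calls stand beside 34.2%, 35.3% and 22.8% of all genes called in E1-KO, E2-KO and D-KO. Of 27 genes for mitochondrial DNA transcription and maintenance, 2 rose and 3 fell in E1-KO, 5 rose and 1 fell in E2-KO, and 1 rose in D-KO, and Polg, Lig3 and Slc25a36 did not pass in any of the 3 comparisons. Of 29 genes for mitochondrial RNA processing and stability, 4 rose and 6 fell in E1-KO, 5 rose and 6 fell in E2-KO, and 3 rose and 1 fell in D-KO. Among them Ptcd3, which binds the small mitochondrial ribosomal subunit, fell in E1-KO and E2-KO (-0.64 ± 0.15 and -0.60 ± 0.15, edgeR adjusted p = 0.00533 and 0.00779). Lrpprc, which stabilises mitochondrial messages, had -0.32 ± 0.15, -0.26 ± 0.15 and -0.06 ± 0.15 and did not pass, nor did Tbrg4. Of 77 mitoribosomal protein genes, 7 rose and 8 fell in E1-KO, 17 rose and 3 fell in E2-KO, and 14 rose and 1 fell in D-KO. With both directions together this was in each genotype a smaller share than that of all genes called. The share that rose was larger than among all genes in E2-KO and D-KO, and smaller in E1-KO. Mrpl17 rose in E2-KO and D-KO (0.30 ± 0.09 and 0.60 ± 0.09, adjusted p = 0.0192 and 0.00035), Mrpl45 fell in E1-KO and E2-KO (-0.59 ± 0.11 and -0.43 ± 0.11, adjusted p = 0.00115 and 0.00857), and Mrpl15 did not pass against WT. Of 8 biogenesis regulators 1 rose in each genotype and 1 fell in D-KO, with Pprc1 up in D-KO (0.37 ± 0.11, adjusted p = 0.0256) and Gabpa and Yy1 not past the test. Of 12 mitochondrial stress genes 2 rose and 1 fell in each of E1-KO and E2-KO, 1 rose in D-KO, and the chaperones Hspd1, Hspa9 and Hspe1 did not pass.

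RNAs known to stay in the nucleus were listed as well. Of 5 tested, 2 rose and 2 fell in E1-KO, 1 rose and 2 fell in E2-KO and 2 fell in D-KO, beside the shares of all genes called given above (34.2%, 35.3% and 22.8%). Malat1 rose in E1-KO (0.99 ± 0.22, edgeR adjusted p = 0.00444) and fell in D-KO (-0.68 ± 0.23, 0.0448), Neat1 rose in E1-KO and E2-KO (1.50 ± 0.30 and 1.15 ± 0.30), and Snhg11 fell in all 3 genotypes (-1.27, -1.14 and -0.70). Their part in the mitochondrial shares was not tested.

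The nuclear genes whose log2 CPM followed the log2 mitochondrial share most closely over the 12 libraries were Rap1b (Pearson r = 0.994), Rrm1 (0.993), Usp14 (0.993), Dkc1 (0.993) and Ptcd3 (0.989), of 9636 genes searched. Rap1b had 180.0, 132.1 and 239.2 CPM in WT, 117 to 123 in E1-KO, 126 to 133 in the E2-KO libraries and 152 to 158 in those of D-KO. These values describe 12 libraries in which WT 1 and WT 3 form the high end, and the libraries share the differences in base content given above.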

How the data were processed

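Of the series, 12 RNA-seq samples were analysed, and 10 samples of 4C and ChIP assays were not used here. The authors deposited raw read counts per gene, aligned with HISAT2 2.1.0 and counted with HTSeq 0.9.1 on mm10, per the submitters' processing notes, which also name DESeq2 1.18.1. Neither the annotation release nor the strand setting of the counting is given in the sources used here. Lines for reads on no gene were left out of totals.

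Genes were filtered with filterByExpr (16765 kept), scaled by TMM and tested with edgeR 4.0.16 (robust quasi-likelihood, 1 mean per genotype over 12 libraries, Benjamini-Hochberg over all genes, threshold 0.05) in R 4.3.3. The mitochondrial share was compared by exact permutation tests over every arrangement of the libraries, written in Python 3.11.15. In counts simulated for E1-KO against WT (16383 genes), 80% of log2 changes of 1 and 100% of changes of 2 were recovered, and 13 unchanged genes were called. The simulation gave WT and KO libraries the same spread. It lacked the wide WT spread of the data, so these figures do not give the recovery or the false calls against WT here. Copies of mitochondrial DNA were searched in GRCm38 with BLAST+ 2.17.0 (word size 28, minimum identity 75%), with GENCODE M21 gene positions. Every member that passed the filter is named, with the 3 genes of highest mean CPM in each nuclear list and the 5 nuclear genes most correlated with the share; 1 of the genes so chosen is not reported here. The members and lists were chosen with earlier results of these data known. Alternatives covered scaling, the filter, a replicate block, the 6 libraries compared, each library left out, WT 2 alone for WT, DESeq2 1.42.0, limma 3.58.1 (voom with a weight per genotype), GC and length trends, and the definition of the share. The share over members with no identical 100-base nuclear window was added after the data were seen. Intervals cover counting error only, since reads carried no molecular identifiers in the tables.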

Additional observations from a re-analysis of the deposited data

How the results depend on the processing

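With WT 2 alone for WT, the spread comes from the KO libraries only and the lone WT library is assumed to vary like them, so those calls are no test against WT. The calls between KO genotypes in that fit likewise leave the WT spread out. Calls in E1-KO against WT numbered 18, and 10 with WT 2 alone for WT, with 12 to 18 as each library was left out. In E2-KO against WT there were 15, and 7 in the 6 libraries, 6 with WT 2 alone, 7 by limma voom, 6 with GC and length trends removed and 8 to 18 leaving out libraries. In D-KO against WT there were 3, and 14 with no filter, 1 in the 6 libraries, 11 with WT 2 alone, 5 by DESeq2, 1 by voom and 1 to 13 leaving out libraries. D-KO against E1-KO gave 7, and 16 with no filter, 16 in the 6 libraries, 17 with WT 2 alone, 16 by voom and 3 to 12 leaving out libraries. D-KO against E2-KO gave 3, and 14, 14, 15 and 10 under these settings and 0 to 8 leaving out libraries. E2-KO against E1-KO gave 0, and 5, 8, 10 and 1, with 0 to 1 leaving out libraries. The cause was not tested.

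With the replicate block the calls were 18, 14, 1, 6, 2 and 0 in the order above. The numbers are not stated to pair libraries, and 0 of 18 same-numbered pairs had a correlation over 0.1 (-0.09 to 0.09); 2 libraries correlated best with their own number. The share difference of D-KO against WT was 0.42 with WT 2 alone, and F over 4 genotypes was 3.45 on the percent scale and 6.61 with the block (exact permutation p = 0.0208). Leaving out libraries, F was 4.50 to 30.5, and 91.0 to 249.0 among KO genotypes. Share differences from WT were -1.69 to -0.89 in E1-KO, -1.42 to -0.63 for E2-KO and -0.80 to -0.01 for D-KO. Library totals in place of TMM moved all genes by 0.11 in E1-KO against WT, and took the share of all called genes that were higher to 57.1% there and to 36.0% in D-KO against E1-KO.

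Of 2640 single-gene values under alternatives, 2226 kept direction and call, 181 lost a call, 158 gained one and 75 changed sign. With WT 2 alone, values that changed sign were, in E1-KO, mt-Tp 0.0011 and mt-Ts1 0.52, and in E2-KO, mt-Nd2 0.17, mt-Nd4 0.067, mt-Nd4l 0.038, mt-Rnr2 0.040, mt-Tp 0.38 and mt-Ts1 0.39. In D-KO they were mt-Atp6 0.42, mt-Co1 0.58, mt-Co2 0.16, mt-Co3 0.33, mt-Nd1 0.43, mt-Nd2 0.58, mt-Nd3 0.38, mt-Nd4 0.54, mt-Nd5 0.43, mt-Nd6 0.42, mt-Rnr2 0.76, mt-Te 1.36, mt-Tp 0.97 and mt-Tt 0.090. With GC and length trends removed, mt-Ts1 was 0.14 in E1-KO and 0.20 in E2-KO against WT and 0.058 in E2-KO against E1-KO, mt-Nd4l 0.21 in E2-KO against WT and -0.081 in D-KO against E1-KO, mt-Ty -0.13 in D-KO against E2-KO, and in D-KO against WT mt-Atp6 0.091, mt-Co1 0.045 and mt-Co3 0.099. With library totals, mt-Nd4l was 0.067 in E2-KO against WT and -0.040 in D-KO against E1-KO, mt-Co3 0.0097 in D-KO against WT, mt-Ty -0.032 in D-KO against E2-KO, and in E2-KO against E1-KO mt-Te -0.0021 and mt-Tq -0.030. In E2-KO against WT mt-Nd4l was 0.0061 with no filter and 0.0033 with the replicate block. In D-KO against WT mt-Co3 was 0.0068 with no filter and 0.042 by voom. In E2-KO against E1-KO mt-Te was -0.033 with the block, and mt-Tq -0.0097 with RLE scaling, -0.020 in the 6 libraries, -0.015 with WT 2 alone and -0.083 by voom.

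Leaving out each library gave, against WT, mt-Ts1 -0.41 to 0.26 in E1-KO and -0.53 to 0.14 in E2-KO, and mt-Nd4l -0.20 to 0.21 in E2-KO. In D-KO against WT it gave mt-Atp6 -0.35 to 0.051, mt-Co1 -0.34 to 0.14, mt-Co3 -0.17 to 0.12, mt-Cytb -0.16 to 0.22, mt-Rnr2 -2.03 to 0.23, mt-Te -1.54 to 0.29 and mt-Tt -1.50 to 0.21. It gave mt-Nd4l -0.30 to 0.37 and mt-Tq -0.023 to 0.57 in D-KO against E1-KO, mt-Tq -0.023 to 0.57 and mt-Ty -0.21 to 0.22 in D-KO against E2-KO, and mt-Te -0.18 to 0.23, mt-Tq -0.21 to 0.31 and mt-Ts1 -0.22 to 0.0040 in E2-KO against E1-KO.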
